A study of Homo sapiens with 11 samples.

Results

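The genes described here are long intergenic non-coding RNA genes that carry a LINC number as their name, measured in MDA-MB-468 cells. A gene was included if the array annotation gave a probe set exactly 1 gene symbol that starts with LINC and a digit, and if the mean of that probe set over all 11 arrays was at least 3 on the deposited log2 scale. Where a gene had several such probe sets, the one with the highest mean stood for it. The annotation named 622 LINC genes, and 92 of them reached the mean of 3, out of 22395 genes of all kinds. The genes were thus selected on their level over all arrays, so the levels below are a description. The rule used no difference between groups, though a gene that is high in a single group could pass through that group.

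MDA-MB-468 is an established triple-negative breast cancer line taken from a pleural effusion. Over 24 h the cells received 40 ng/ml of the cytokine TNF (tumour necrosis factor) plus 40 µM apigenin (3 arrays), 40 µM apigenin (2 arrays), 40 ng/ml TNF (3 arrays) or neither agent, the control (3 arrays). TNF is an inflammatory cytokine that acts through NF-kB, and apigenin is a plant flavone. All groups are cultures of 1 cell line, and whether replicates were grown and treated separately is not given in the sources used here, so p-values reflect only how far arrays of a group differ, and that variation can be technical. Total RNA of whole cultures was measured, in which fewer cells and less RNA per cell cannot be told apart.

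Long intergenic non-coding RNAs are transcribed from stretches between protein-coding genes and carry no long reading frame. Many are spliced and polyadenylated like messenger RNA, and most are less abundant and more restricted to particular cell types than messenger RNA. Some act in the nucleus on nearby genes or on chromatin, others in the cytoplasm on proteins or microRNAs, and a few turned out to encode small peptides. A LINC number is given to a gene for which no function had been established when it was named.

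Of 10 markers of epithelium and breast carcinoma lines 8 had a probe set of their own, and all 8 lay at means of 4.18 to 10.8. The hormone receptor genes ESR1 and PGR lay at 2.35 and 1.49. Among markers of other cell types the leukocyte genes PTPRC, CD3E and LYZ (1.46, 1.6 and 1.49), the fibroblast genes DCN and LUM (1.43 and 1.8) and the endothelial gene VWF (1.87) lay below the median of all probe sets, 2.53, whereas CD68, CSF1R, COL1A1, CDH5 and KDR lay between 3.34 and 5.32. Array apigenin 1 had the lowest median over the tested genes, 3.89, against 4.08 to 4.32 on the other 10 arrays, and the lowest median over the 92 LINC genes, 3.7, against 3.9 to 4.18. Correlations between arrays of a group over the 92 genes were 0.935 to 0.972 with TNF plus apigenin, 0.906 with apigenin, 0.929 to 0.95 with TNF and 0.949 to 0.982 in control.

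Signals of most LINC genes were low on these arrays. A mean of at least 3 was reached by 14.8% of the 622 LINC genes, against 25.6% of 1379 other long non-coding RNA genes and 61.5% of 17025 protein-coding genes. The median level was 2.17 for LINC genes, 2.4 for other long non-coding RNA genes and 3.71 for protein-coding genes. A mean of 6 or more was reached by 12 LINC genes. Just inside the threshold lay LINC01451 at 3.03, LINC01521 at 3.025 and LINC00977 at 3.012, and just outside it LINC01931 at 2.999, LINC00957 at 2.998 and LINC02363 at 2.992. The mean was at least 3 in each of the 4 groups for 79 of the 92 genes, in 3 groups for 8 and in 2 groups for 5.

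**Figure D1:**
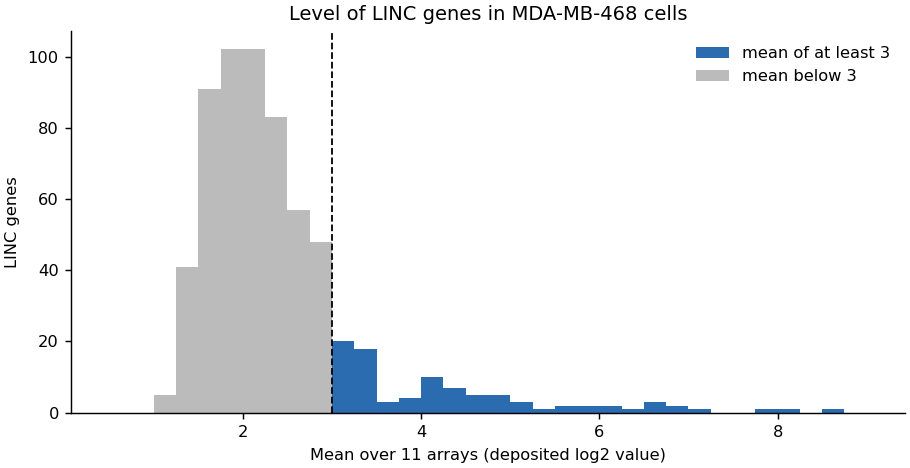
Number of LINC genes by their mean over the 11 arrays, on the deposited log2 scale, in bins of 0.25. The 92 genes with a mean of at least 3 are blue and those below it grey (a gene on the Y chromosome is left out), and most of the genes lie left of the dashed line at 3.

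The highest means belonged to LINC01347 (8.74), LINC01000 (8.23), LINC01061 (7.91), LINC01278 (7.2), LINC01002 (6.89), LINC01133 (6.84), LINC01881 (6.63), LINC02595 (6.59), LINC00294 (6.59) and LINC00266-1 (6.25). Signals of different probe sets are not directly comparable as amounts of RNA, so the order is one of signal. Several of these names cover more than 1 probe set, and the probe sets do not always measure the same thing. LINC01000 had a second probe set at a mean of 4.87 beside the one used at 8.23, and LINC01061 a pair at 7.91 and 7.77 beside one at 4.61. LINC01347 had probe sets at 8.74, 8.06 and 5.01. For LINC00266-1 the 3 probe sets lay close together, at 6.25, 5.93 and 5.61. In all, 11 of the 92 genes had several probe sets, and for those whose probe sets lie far apart the value belongs to the probe set rather than to a known single locus. RefSeq (GRCh38.p14) listed 91 of the 92 as long non-coding RNA genes and had no entry for LINC00266-1 in the table used. Of these 91, 7 overlapped the span of a protein-coding gene and 84 overlapped none.

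LINC01133, known from colorectal cancer as a binding partner of the splicing factor SRSF6, was the highest of the cancer-studied LINC genes in the set. The 7 of that list among the 92 were LINC01133, LINC00472 (5.84), LINC00673 (5.02), LINC00641 (4.41), LINC00467 (4.35), LINC00665 (4.22) and LINC00963 (4.15). LINC00472 has been described as a tumour suppressor in breast cancer. LINC00467 and LINC00665 have each been reported to encode a micropeptide, ASAP and CIP2A-BP, which RefSeq gives as synonyms. LINC01139, or LINK-A, first studied in triple-negative breast cancer, had a mean of 4.2.

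Limma, a linear model fitted across 15865 tested genes, made 7 calls on 6 of the 92 LINC genes at a Benjamini-Hochberg adjusted p under 0.05. LINC00997 was lower with apigenin, alone or with TNF, LINC01235 was lower with apigenin alone, and LINC00887 and LINC03040 were lower with both agents than in control. LINC02595 was higher with both agents than in control, and LINC00472 was higher with both agents than with apigenin alone. No LINC gene of the 92 was called for TNF against control. The promoters of 5 of these 6 genes were in the RefSeq table used here. They are printed to show the sites at which these transcripts start, each 300 bases from 250 before the start to 50 from the start on, 5′ to 3′ along the gene's strand, with the transcribed bases in capitals (GRCh38.p14). LINC00997 lies on chromosome 7 (chr7:32758036-32758335, plus strand), LINC00887 on chromosome 3 (chr3:194312755-194313054, minus strand), LINC03040 on chromosome 6 (chr6:44000335-44000634, plus strand), LINC02595 on chromosome X (chrX:45851441-45851740, minus strand) and LINC00472 on chromosome 6 (chr6:71420696-71420995, minus strand), and LINC01235, for which no promoter is printed, on chromosome 9.
LINC00997: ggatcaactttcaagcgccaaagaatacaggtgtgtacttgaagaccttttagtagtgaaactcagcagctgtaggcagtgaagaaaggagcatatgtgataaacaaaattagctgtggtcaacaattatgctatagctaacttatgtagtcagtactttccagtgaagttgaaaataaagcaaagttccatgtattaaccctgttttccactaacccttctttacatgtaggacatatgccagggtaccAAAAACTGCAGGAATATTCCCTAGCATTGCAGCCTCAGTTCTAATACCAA
LINC00887: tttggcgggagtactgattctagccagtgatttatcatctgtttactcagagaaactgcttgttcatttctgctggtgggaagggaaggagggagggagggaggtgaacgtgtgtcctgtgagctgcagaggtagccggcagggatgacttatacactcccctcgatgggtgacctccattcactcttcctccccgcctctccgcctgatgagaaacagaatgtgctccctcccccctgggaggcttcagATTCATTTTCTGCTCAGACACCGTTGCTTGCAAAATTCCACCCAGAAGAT
LINC03040: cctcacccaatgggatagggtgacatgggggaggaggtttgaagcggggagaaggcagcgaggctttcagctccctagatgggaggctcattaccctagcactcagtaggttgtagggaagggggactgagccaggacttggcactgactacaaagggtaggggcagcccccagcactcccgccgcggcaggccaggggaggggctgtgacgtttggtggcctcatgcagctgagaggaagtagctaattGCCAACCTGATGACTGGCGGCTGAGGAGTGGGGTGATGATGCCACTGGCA
LINC02595: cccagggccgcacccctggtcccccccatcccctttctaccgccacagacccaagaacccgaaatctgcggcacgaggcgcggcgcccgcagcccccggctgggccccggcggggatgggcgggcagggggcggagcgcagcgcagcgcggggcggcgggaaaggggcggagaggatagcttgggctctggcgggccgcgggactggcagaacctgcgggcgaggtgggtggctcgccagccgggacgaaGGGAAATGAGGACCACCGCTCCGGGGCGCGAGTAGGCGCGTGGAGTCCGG
LINC00472: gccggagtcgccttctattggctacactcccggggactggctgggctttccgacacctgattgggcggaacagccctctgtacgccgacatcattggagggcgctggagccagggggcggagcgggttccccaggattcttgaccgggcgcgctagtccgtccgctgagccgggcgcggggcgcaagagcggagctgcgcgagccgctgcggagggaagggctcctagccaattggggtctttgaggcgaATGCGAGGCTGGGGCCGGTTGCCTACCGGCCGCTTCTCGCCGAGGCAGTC

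The 5 start regions differ in base composition. LINC00997 held 39% G and C with 1 CG pair, LINC00887 52.7% with 7 and LINC03040 60.7% with 7. LINC02595 held 75.7% with 36 CG pairs and LINC00472 68.7% with 31. The median was 55.7% and 9 CG pairs over the 71 LINC genes of the set with an entry, and 58.3% and 14 over all 27305 promoters. These are 5 sequences and the contrast is a description. None of the 5 held a match, on either strand, to the NF-kB consensus, to the AP-1 motif (TGANTCA) or to the TATA box in its strict spelling (TATAAA). The core of the aryl hydrocarbon receptor element (GCGTG) matched LINC02595 once, 38 bases after the start. Among the 71 LINC promoters 4.23% held the NF-kB consensus, 8.45% the AP-1 motif, 26.8% the aryl hydrocarbon receptor core and 15.5% the TATA box. Among all promoters the shares were 10.8%, 7.76%, 36.3% and 12% in the same order.

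Apigenin alone lowered LINC00997 and LINC01235. LINC00997 had values of 5.24 and 5.18 on the apigenin arrays, against 6.69, 6.42 and 6.76 on the control arrays. The groups lay far apart, and the 2 apigenin arrays differed by less than the control arrays did. Its log2 change was -1.41 ± 0.24 (limma SE), a level 2.66-fold lower, with a 95% interval of -1.93 to -0.9 (adjusted p = 0.00612). LINC01235 had 4.29 and 4.42 with apigenin, against 5.18, 5.28 and 5.4 in control, again without overlap. Its change was -0.93 ± 0.21, or 1.91-fold lower (adjusted p = 0.024).

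These 2 of 92 genes, 2.17%, compare with 3.66% of all tested genes called for apigenin against control (3.44% lower and 0.221% higher). A share near that of all genes is no property of the LINC genes. The median change of the 92 was -0.08, against -0.18 over all tested genes. It turned to 0.08 after quantile normalization and to 0.13 after each array was shifted to the same median, so its sign depends on the scaling, while both called genes stayed called and lower under either scaling. Without array apigenin 1, the array with the lowest median, which leaves 1 apigenin array, neither gene was called (LINC00997 at adjusted p = 0.0661 and LINC01235 at adjusted p = 0.164 by limma). LINC00997 kept a change between -1.51 and -1.34 over the 11 fits that left out an array. The call of LINC01235 was also lost without control 1 or control 3, which left 1 called gene, and with array weights (adjusted p = 0.0711) or only the groups compared in the fit (adjusted p = 0.0754). Without TNF plus apigenin 3 limma called 4 of the 92 genes, and 621 of all tested genes, against 581 in the main fit.

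The next genes by p did not pass. LINC01133 had 6.34 on both apigenin arrays, against 7.13, 7.37 and 6.95 in control, at a change of -0.8 ± 0.22 (adjusted p = 0.0552). LINC00266-1 stood at -0.86 ± 0.24 (adjusted p = 0.0606), and its other probe sets gave -0.93 and -0.79. The remaining genes of the 10 lowest p were LINC00887 (-0.81), LINC00355 (-0.72) and LINC01963 (-0.65) on the lower side and LINC00857 (0.7), LINC00467 (0.7) and LINC00664 (0.64) on the higher side, with adjusted p between 0.0905 and 0.146. Limma called LINC01133 and LINC00266-1 under the stricter filter (adjusted p = 0.0331 and adjusted p = 0.0334), and LINC00857 and LINC00467 after quantile normalization (adjusted p = 0.0376 and adjusted p = 0.0398). At an unadjusted p under 0.05 there were 19 of 92 genes, 5 higher and 14 lower, or 20.7%, against 19.5% of all tested genes (2.02% higher and 17.5% lower).

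**Figure D2:**
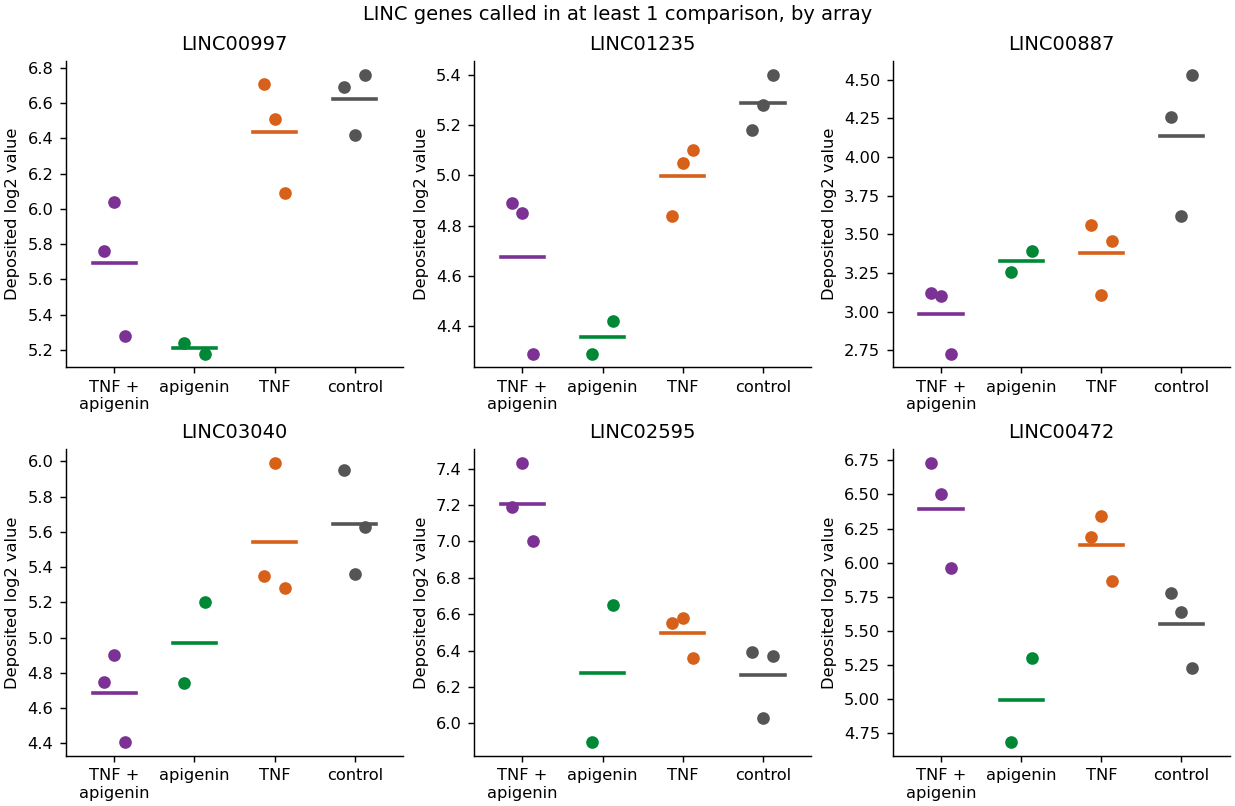
Deposited log2 values of the 6 LINC genes called in at least 1 comparison, with TNF plus apigenin, apigenin, TNF and control from left to right. Points are arrays and bars are group means; LINC00997 and LINC01235 lie lowest with apigenin, LINC00887 and LINC03040 lowest with both agents, and LINC02595 and LINC00472 highest with both agents. The vertical axes do not start at 0.

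With both agents together 4 LINC genes differed from control. LINC00887, for which RefSeq gives the synonym ACLY-BP, had 3.12, 3.1 and 2.73 with TNF plus apigenin, against 4.26, 3.62 and 4.53 in control. The groups did not overlap, and TNF plus apigenin lay near the median of all probe sets, so the change of -1.15 ± 0.22 is given without a fold (adjusted p = 0.0116). With each agent alone the mean of LINC00887 lay between those of these groups, at 3.26 and 3.39 with apigenin and at 3.56, 3.11 and 3.46 with TNF, and neither of those differences from control passed (-0.81 with adjusted p = 0.0905 and -0.76 with adjusted p = 0.243 by limma).

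LINC03040, once named C6orf223, had 4.75, 4.9 and 4.41 with TNF plus apigenin, against 5.95, 5.36 and 5.63 in control. The 2 groups did not overlap. The change was -0.96 ± 0.23, or 1.95-fold lower (adjusted p = 0.0378). With apigenin alone it had 4.74 and 5.2, and with TNF alone 5.35, 5.99 and 5.28, where the range covered that of control. Against TNF alone, TNF plus apigenin stood at -0.85 ± 0.23, which did not pass (adjusted p = 0.112).

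LINC00997 was lower here too, with 5.76, 6.04 and 5.28 with TNF plus apigenin against the control values above. Its change was -0.93 ± 0.22, or 1.9-fold lower (adjusted p = 0.0331). TNF alone left it at 6.71, 6.51 and 6.09, which overlaps control (change -0.18 ± 0.22, adjusted p = 0.949). Beside apigenin alone, TNF plus apigenin was 0.48 ± 0.24 higher, and that difference did not pass (adjusted p = 0.346). The comparisons with control share the control arrays, so the lower values of LINC00997 in both are not independent of each other.

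LINC02595 went the other way. It had 7.19, 7.43 and 7 with TNF plus apigenin, against 6.39, 6.03 and 6.37 in control, and all 3 arrays lay above every array of the other groups. The change was 0.95 ± 0.21, or 1.93-fold higher (adjusted p = 0.0229). Apigenin alone gave 5.9 and 6.65 and TNF alone 6.55, 6.58 and 6.36, with changes from control of 0.01 ± 0.23 and 0.23 ± 0.21 that did not pass (adjusted p = 0.982 and adjusted p = 0.911). The interaction, which asks whether the effect of TNF with apigenin differs from that without it, was 0.7 ± 0.31 for LINC02595 and did not pass (adjusted p = 0.608). An effect larger than the sum of the agents is therefore not shown for it.

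For TNF plus apigenin against control these 4 of 92 genes, 4.35%, compare with 2.82% of all tested genes (1.04% higher and 1.78% lower). The median change was 0.03 for the 92 and -0.02 for all tested genes. Quantile normalization and the shift to equal medians each gave 11 called LINC genes (5 higher and 6 lower, and 7 higher and 4 lower), and all 4 genes were among them. Calls over all tested genes rose as well, to 1233 and 998 of 15865, against 447. Without control 1 or control 3 limma called none of the 92 genes (211 and 270 of all tested genes). Without TNF plus apigenin 1 it called 1 (336 of all). Without TNF plus apigenin 2 or 3 it called 2 genes each time (206 and 258 of all). The fits that left out an array lost the call of LINC00887 in 3 of 11 cases, that of LINC00997 in 4 and those of LINC02595 and LINC03040 in 5 each, with no change of sign. With no filter on low values LINC03040 was not called by limma (adjusted p = 0.0583), which left 3 genes. TNF plus apigenin 3 was the lowest of its group for all 6 called genes, higher and lower ones alike.

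Among the next genes by p, LINC01126 stood at 0.78 ± 0.22 (adjusted p = 0.0762) and LINC00472 at 0.84 ± 0.24 (adjusted p = 0.0765). LINC01004 had 5.62, 5.78 and 5.07 with TNF plus apigenin, against 4.96, 4.33 and 4.89 in control, without overlap, at 0.76 ± 0.23 (adjusted p = 0.1). LINC00159 (0.73) lay on the higher side and LINC01235 (-0.61) and LINC00920 (-0.7) on the lower, with adjusted p between 0.101 and 0.111. After quantile normalization limma called LINC01004 (adjusted p = 0.0221), LINC01235 (adjusted p = 0.0228) and LINC00920 (adjusted p = 0.046), and with array weights also LINC01126 (adjusted p = 0.0074) and LINC00159 (adjusted p = 0.00819). At an unadjusted p under 0.05 there were 23 of 92 genes, 12 higher and 11 lower, or 25%, against 15.9% of all tested genes (7.15% higher and 8.79% lower).

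**Figure D3:**
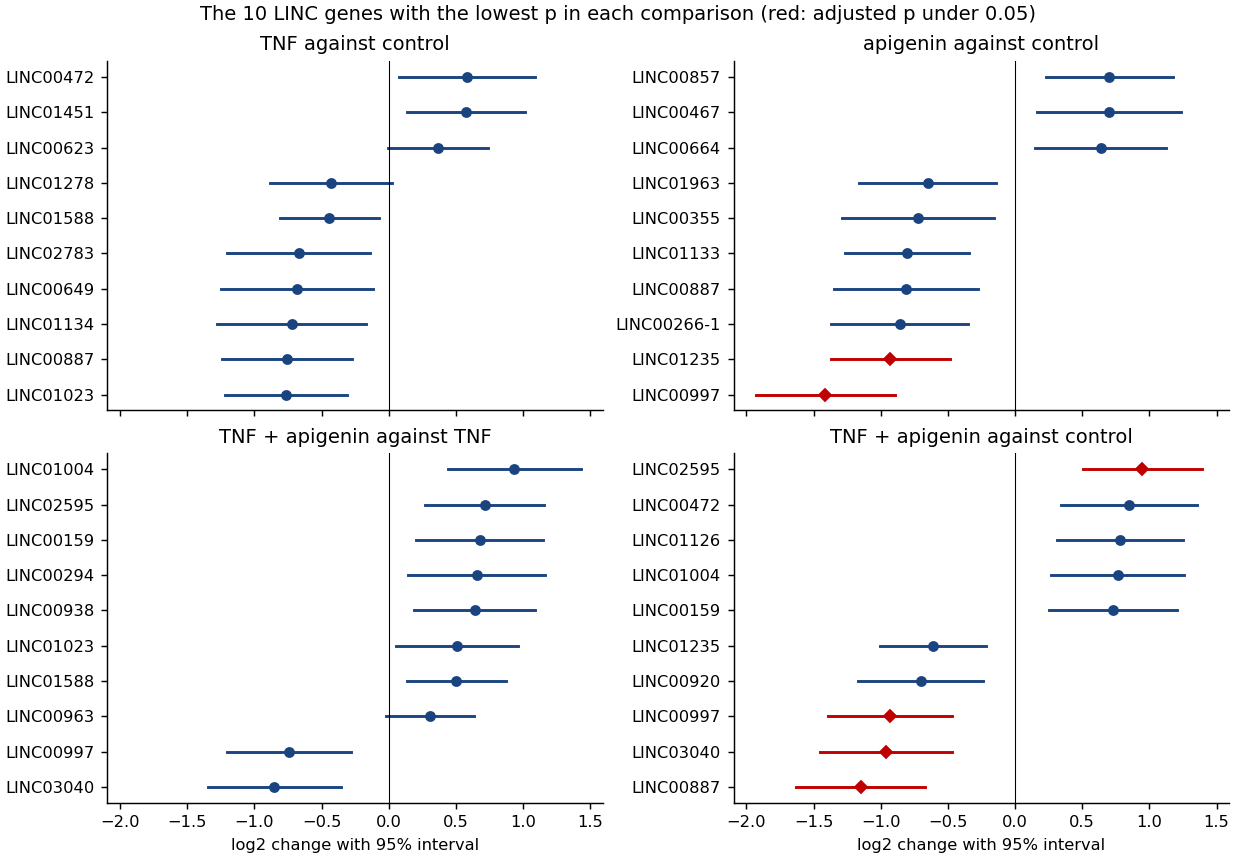
Log2 change with its 95% interval for the 10 LINC genes of lowest p in 4 comparisons. Red diamonds passed an adjusted p of 0.05 and blue points did not; LINC00997 with apigenin, at -1.41, has the largest change drawn.

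Adding TNF to apigenin raised LINC00472. This gene had 6.73, 6.5 and 5.96 with TNF plus apigenin, against 4.69 and 5.3 with apigenin alone. The groups did not overlap. The change was 1.4 ± 0.26, or 2.64-fold higher, with a 95% interval of 0.84 to 1.97 (adjusted p = 0.0284). Control, at 5.78, 5.64 and 5.23, had a mean between these groups. TNF plus apigenin stood 0.84 above control and apigenin 0.56 below it, and neither difference passed (adjusted p = 0.0765 and adjusted p = 0.262 by limma). The difference between TNF plus apigenin and control was called by limma after quantile normalization (adjusted p = 0.0136), after the shift to equal medians (adjusted p = 0.0268), with the stricter filter (adjusted p = 0.0379), with array weights (adjusted p = 0.00641), with the replicate block (adjusted p = 0.0326) and without TNF plus apigenin 3 (adjusted p = 0.0444). TNF alone gave 6.19, 6.34 and 5.87, or 0.58 ± 0.24 above control (adjusted p = 0.541). The interaction was 0.82 ± 0.36 (adjusted p = 0.604), so a different effect of TNF in the presence of apigenin is not shown.

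This 1 gene of 92, 1.09%, compares with 0.574% of all tested genes called for TNF plus apigenin against apigenin (0.529% higher and 0.0441% lower). The median change was 0.06 for the 92 and 0.16 for all tested genes, and that of the 92 became -0.14 after the shift to equal medians, under which LINC00472 was still called. Its call was lost without apigenin 1 and without TNF plus apigenin 1 or 2, with changes of 1.1 to 1.71 over the 11 fits, and also with array weights or with only the 2 groups in the fit. In the main fit LINC02595 came next at 0.93 ± 0.23 (adjusted p = 0.0836 by limma). Without apigenin 2, which leaves 1 apigenin array, LINC02595 stood at 1.305. LINC00641 stood at 1.04 ± 0.32, with a wider error (adjusted p = 0.153). LINC01004 (0.86), LINC00310 (0.76), LINC00355 (0.67), LINC01987 (0.64), LINC00240 (0.62) and LINC00938 (0.59) lay on the higher side and LINC02783 (-0.7) on the lower, with adjusted p of 0.143 or more. At an unadjusted p under 0.05 there were 14 of 92 genes, 12 higher and 2 lower, or 15.2%, against 15.7% of all tested genes (14.1% higher and 1.65% lower).

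Adding apigenin to TNF changed none of the 92 genes at the threshold by limma, against 1.07% of all tested genes (0.384% higher and 0.681% lower). LINC01004 came nearest, with the values above for TNF plus apigenin against 4.25, 4.8 and 4.62 with TNF. The groups did not overlap, at 0.94 ± 0.23 (adjusted p = 0.0739), and limma did call it after quantile normalization (0.86, adjusted p = 0.0185). It was also the 1 gene called without control 2 or without TNF plus apigenin 3. LINC03040 (-0.85), LINC00997 (-0.74) and LINC02595 (0.71) were next, with adjusted p of 0.112 to 0.143. All 3 were called by limma after quantile normalization (adjusted p = 0.0134, adjusted p = 0.0336 and adjusted p = 0.0113) and after the shift to equal medians. After these came LINC00159 (0.68), LINC00938 (0.64), LINC01588 (0.5), LINC00294 (0.65), LINC01023 (0.51) and LINC00963 (0.31). At an unadjusted p under 0.05 there were 9 of 92 genes, 7 higher and 2 lower, or 9.78%, against 11.1% of all tested genes (5.93% higher and 5.2% lower). The median change was 0.03 for the 92 and 0.02 for all.

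TNF alone also changed none of the 92 at the threshold by limma, against 0.7% of all tested genes (0.473% higher and 0.227% lower). LINC01023 had 3.45, 3.57 and 3.37 with TNF, against 4.3, 4.36 and 4.04 in control. Its groups did not overlap, yet at -0.77 ± 0.21 it did not pass after adjustment over all genes (adjusted p = 0.186). LINC00887 (-0.76), LINC01134 (-0.72), LINC00649 (-0.68), LINC02783 (-0.67), LINC01588 (-0.44) and LINC01278 (-0.43) lay on the lower side, and LINC00472 (0.58), LINC01451 (0.58) and LINC00623 (0.36) on the higher, with adjusted p of 0.243 to 0.71. With array weights limma called LINC00887 (-0.96, adjusted p = 0.0166). At an unadjusted p under 0.05 there were 8 of 92 genes, 2 higher and 6 lower, or 8.7%, against 7.41% of all tested genes (2.82% higher and 4.59% lower). The 95% interval of the TNF effect lay within 1 of 0 on the log2 scale for 80 of the 92 genes, or 87%, against 92.7% of all tested genes, so a change of 1 lies outside the interval of these 80 genes. That held for 69 of 92 genes with apigenin against control (75%, against 78.5% of all tested genes), 78 for TNF plus apigenin against TNF (84.8%, against 90.8%), 69 for TNF plus apigenin against control (75%, against 87%), 72 for TNF plus apigenin against apigenin (78.3%, against 81.3%) and 44 for the interaction (47.8%, against 57.9%).

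The interaction of the agents was called for none of the 92 by limma, against 0.0252% of all tested genes (0.0126% higher and 0.0126% lower). An unadjusted p under 0.05 was found for 10 of 92, 9 higher and 1 lower, or 10.9%, against 8.16% of all tested genes (7.14% higher and 1.02% lower). Among them were LINC01004 (1.03), LINC01134 (1.07) and LINC01023 (0.83), with adjusted p of 0.529 or more.

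**Figure D4:**
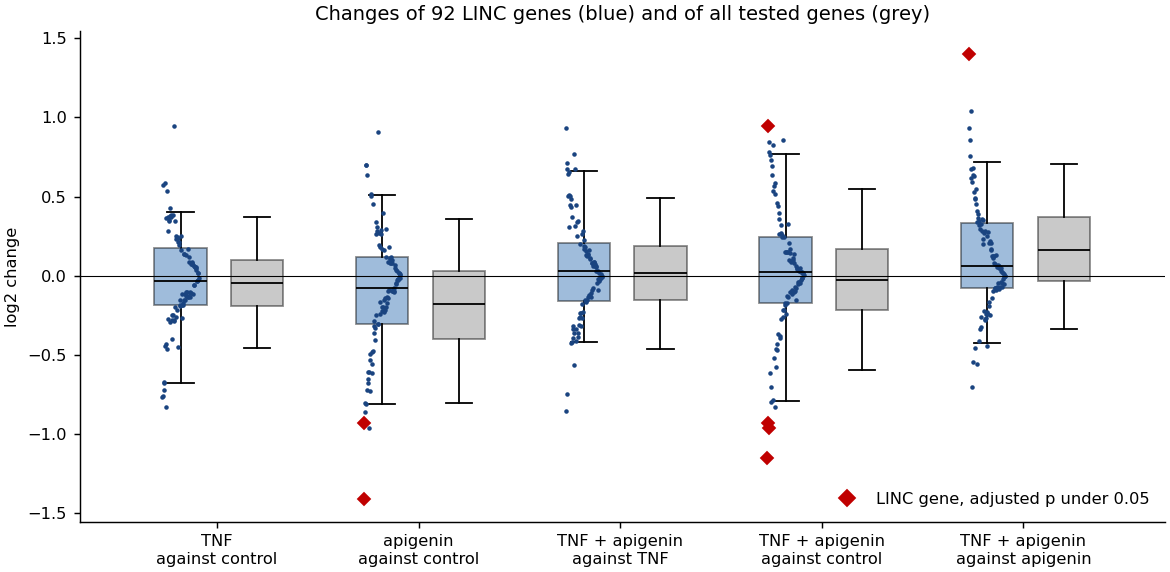
Log2 changes of the 92 LINC genes (blue boxes and points, red diamonds for calls) and of all 15865 tested genes (grey boxes) in the 5 comparisons between groups. Boxes show the median and quartiles and whiskers the 5th and 95th percentile; the LINC median with apigenin is -0.08 and that of all genes -0.18.

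Genes of other kinds gave the LINC genes a scale. Of 353 other long non-coding RNA genes with a mean of at least 3, limma called 17 higher and 1 lower with TNF plus apigenin against control, or 5.1%, beside 4.35% of the LINC genes. Against TNF alone 13 of the 353 were higher, or 3.68%, and none of the 92 LINC genes was. The difference between these shares was not tested. From a list of 39 well-known long non-coding RNA genes 25 were tested. LUCAT1, a stress-responsive transcript, had 4.32, 4.3 and 3.97 with TNF plus apigenin, against 3.42, 3.39 and 3.22 in control (0.86 ± 0.18, adjusted p = 0.0191), and SNHG1, a host gene of small nucleolar RNAs, had 7.52, 7.52 and 7.11 against 6.46, 6.26 and 6.8 (0.88 ± 0.22, adjusted p = 0.0432). MINCR, a MYC-induced transcript, was higher with apigenin than in control (1.22 ± 0.27, adjusted p = 0.024). Of the 25, 2 were called for TNF plus apigenin against control, 1 for apigenin against control and 1 for TNF plus apigenin against apigenin. The shares of all tested genes were 2.82%, 3.66% and 0.574%. Of 14 tested cancer-studied LINC genes only LINC00472 was called, in the comparison above, where the share was 0.574%. Of 6 tested small-protein genes that once had a LINC name, SPAAR was higher with apigenin (0.81 ± 0.21, adjusted p = 0.0492 by limma), where the share was 3.66%. The other 5 were not called in any comparison. Calls from lists this short are a description of the genes named. Among the cell type markers CDH5 and KDR, which mark endothelium, were lower with apigenin, at 2.69 and 2.18 against 3.47, 3.47 and 3.46 in control and at 3.14 and 2.68 against 4.18, 3.89 and 4.62 (adjusted p = 0.0178 and adjusted p = 0.0071 by limma), while VWF lay at 1.51 to 2.01 on every array. CDH5 was lower with TNF plus apigenin than with TNF (-1.25, adjusted p = 0.00451 by limma) and higher with TNF than in control (0.92, adjusted p = 0.0448). The epithelial keratin KRT19 had 7.71, 7.63 and 7.59 with TNF plus apigenin, against 8.56, 8.29 and 8.55 in control (-0.82, adjusted p = 0.0133 by limma). Their part in the LINC results was not tested.

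None of the coding neighbours of the 6 called genes was called. Each of these LINC genes lay in a gap between a pair of coding genes and overlapped neither. Of 12 neighbours 11 were tested, and limma called 0 of them in any comparison. Over all tested genes 0.0252% to 3.66% were called per comparison, so 0 of 11 lies near those shares and is no property of the neighbours. OGFRL1, at a gap of 98805 bases from LINC00472, came closest to the threshold (adjusted p = 0.201 by limma). It stood at 0.65 ± 0.23 for TNF plus apigenin against apigenin, where LINC00472 rose by 1.4. HES1, a Notch target at a gap of 162467 bases from LINC00887, stood at -0.43 ± 0.19 for TNF plus apigenin against control (adjusted p = 0.284 by limma). CPN2, nearer to LINC00887 at 26964 bases, was the neighbour not tested. The widest gap was 650514 bases, from LINC01235 to NFIB. VEGFA, which encodes an angiogenic growth factor and neighbours LINC03040 at a gap of 214098 bases, stood at 0.11 where LINC03040 fell by 0.96. LINC00997 lies between AVL9 and KBTBD2, LINC01235 between MPDZ and NFIB, and LINC02595 between DIPK2B and KRABD4. For 61 of the 92 genes no coding gene overlapped and the nearest coding gene was tested. The correlation of the 2 changes across these genes was 0.09 to 0.3. This is a description, since genes on the same arrays are not independent replicates.

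**Figure D5:**
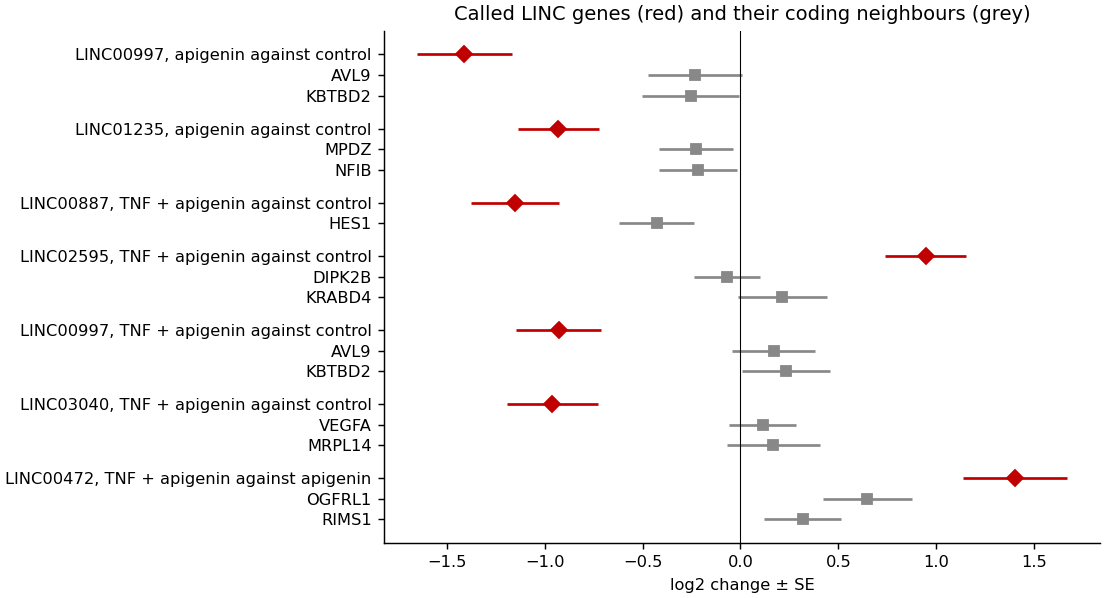
Log2 change ± SE of the called LINC genes (red) and of their tested coding neighbours (grey), each in the comparison in which the LINC gene was called. The LINC genes lie beyond 0.9 in either direction, and OGFRL1, at 0.65, is the neighbour farthest from 0.

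Several LINC genes differed widely between arrays of a group. The largest range within a group exceeded the range of the group means for 73 of the 92 genes, and it was over 1 for 17. A mean over arrays varies less than single arrays, so genes without a change would often meet the first criterion. The shares over all tested genes were not computed, so these counts are a description. LINC00863 had 5.25, 5.72 and 7.98 with TNF plus apigenin, 7.74 and 5 with apigenin, 5.72, 5.67 and 7.84 with TNF, and 5.45, 5.59 and 5.36 in control. A single array of each treated group was high and the other 8 arrays were close together. Those 3 arrays lay 2.02 or more above the other treated arrays. They were picked from the values of LINC00863 itself, so its rank of 1 by that gap among all 15865 tested genes is no test. The genes next in that order included RN5S390, RN5S455 and RN5S471, which are annotated as 5S ribosomal RNA genes or copies of them. The microRNA genes MIR1185-2 and MIR4481 were also among them. Over 176 genes of the RN5S name the median was 2.9 on TNF plus apigenin 3, 2.82 on apigenin 1 and 2.9 on TNF 3. This is within the 2.8 to 3.05 of the other arrays, and a median does not register a rise in a few of the genes. A shared source of these high values was not tested. LINC00243 and LINC01123 were low on array TNF 1 alone, at 2.28 and 2.32. Arrays TNF 3, apigenin 1 and TNF plus apigenin 3 were then all left out, which leaves 1 apigenin array. This choice was made after seeing the data. For TNF plus apigenin against control LINC02595 then stood at 1.05, LINC00472 at 1.06 and LINC00159 at 0.86. LINC00887, LINC00997 and LINC03040, called lower in the main fit, did not pass in that fit.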

How the data were processed

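The authors deposited log2 signals of Affymetrix Human Gene ST arrays. The submitters' processing notes name Affymetrix Expression Console. Its version, summary algorithm and normalization were not given in the sources used here, and the log base is read from the range of values. Precision is limited by how many arrays there are. Probe sets with exactly 1 gene symbol were kept (23871 of 25713 listed), symbols were updated through RefSeq (GRCh38.p14), and the probe set with the highest mean stood for each gene. The tests covered the 15865 genes with 2 or more arrays at 2.53, the median of probe set means, or higher.

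Limma 3.58.1 in R 4.3.3 was fitted with 1 mean per group over all 11 arrays (7 residual degrees of freedom), two-sided, with Benjamini-Hochberg adjustment over all tested genes and an adjusted p of 0.05 as threshold. An error after ± is limma's SE, and folds are powers of 2 of log2 changes. The script was tested on simulated data. Named are all called LINC genes, the 10 of lowest p and of highest mean, those beside the threshold and members of the lists. The members and lists were chosen with earlier results of these data known. Alternatives were other scalings, filters, array weights, probe set averaging, a replicate block, only the groups compared, and leaving out each array. Motifs were searched on both strands. Whether replicate numbers pair the arrays was not settled, and the main fit had no block.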

Additional observations from a re-analysis of the deposited data

How the results depend on the processing

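Of 1171 alternative values of 60 named changes, 1081 kept their direction and side of the threshold, 35 lost it, 55 gained it and 0 changed sign. Only the 7 changes called in the main fit could lose the threshold, so the 35 belong to the alternatives of these 7. Each of the 7 calls was lost in some alternative, so the 1081 do not measure how stable the calls are. For apigenin against control limma called 4 LINC genes after quantile normalization, 5 after the shift to equal medians and 1 with array weights. It called 5 with the replicate block and 1 with only the groups compared, against 2 as reported. Over all tested genes there were 595 calls after quantile normalization, 505 after the shift, 207 with array weights and 712 with the replicate block. With only the groups compared there were 103, against 581 in the main fit. The stricter filter, a mean of at least 4, tested 8429 genes, and LINC genes under 4 were not in that fit. It gave 4 LINC calls and 683 over all its genes. For TNF plus apigenin against TNF the counts were 4 after either scaling, 1 with the stricter filter and 4 with array weights, against 0. Over all tested genes these were 510 and 452 after the scalings, 174 of 8429 with the stricter filter and 391 with array weights. The main fit had 169 of 15865. For TNF plus apigenin against control the LINC counts were 11 after either scaling, 15 with array weights and 6 with the replicate block, against 4. Over all tested genes these were 1233 and 998 after the scalings, 1197 and 435, against 447. For TNF plus apigenin against apigenin they were 2 with the stricter filter and 0 with array weights or with only the groups compared, against 1. Over all tested genes that comparison had 169 calls of 8429 with the stricter filter, against 91 of 15865 in the main fit. With array weights it had 32 and with only the groups compared 16. For TNF against control 1 LINC gene was called with array weights, against 0 (221 of all tested genes, against 111). Each control, TNF or TNF plus apigenin array was also left out in turn. For apigenin against control this gave 1 to 4 LINC calls (158 to 636 of all tested genes). For TNF plus apigenin it gave 0 to 1 against TNF (85 to 192 of all) and 0 to 4 against control (206 to 411). Against apigenin it gave 0 to 1 (29 to 153). For TNF against control and for the interaction it gave 0 (60 to 99 and 0 to 4 of all). Leaving out an apigenin array leaves 1 in that arm, which is assumed to vary like the other groups, so those counts are not given. The median change of the 92 genes for the interaction was 0.07, and became -0.19 after the shift to equal medians. After each gene's group mean was subtracted, same-numbered arrays of different groups correlated at -0.24 to 0.28 over 15 pairs, 4 of them over 0.1. On these values 5 of 11 arrays correlated best, on average, with the arrays of their own number in other groups. With so few arrays per group this cannot decide whether the replicate numbers pair the arrays. The cause of these shifts was not tested.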

Other observations

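LINC genes below the mean of 3 are shown here for a few genes, chosen after their values were seen. LINC00880 had 3.65, 3.75 and 3.03 with TNF plus apigenin, 2.22 and 2.23 with apigenin, 1.39, 1.56 and 1.72 with TNF and 1.46, 1.69 and 1.54 in control. The 3 arrays with both agents lay above all others. They were also the only arrays of LINC00880 at or above 2.53, the level that 2 arrays had to reach for a gene to be tested, so the gene entered the test through the group where it is high, and its values are given as a description with no test. The same holds for LINC01193, which had 2.79 and 3.35 with apigenin, against 2, 2.13 and 2.24 in control, and reached 2.53 on the apigenin arrays alone.

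LINC01931, just outside the threshold at a mean of 2.999, had 3.76, 3.49 and 3.53 with TNF, against 2.94, 2.46 and 2.61 in control (0.93 ± 0.18, adjusted p = 0.0231 by limma). With apigenin LINC00479 had 2.26 and 2.24, against 3.32, 2.96 and 3.3 in control (adjusted p = 0.0162 by limma). In neither gene did the groups overlap.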
